A study of Mus musculus with 39 samples.

Results

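The genes described here are Lyve1, Mrc1, Cd163, Folr2, Timd4 and Cbr2, 6 of the 53379 genes in a count table of sorted embryonic mouse brain macrophages. They were taken by name because they mark resident macrophages at the borders of the brain, and each symbol was matched through its Ensembl identifier. No measured value entered the choice, although earlier results of these data were known when it was made. Embryos were C57Bl/6 from timed matings, and no transgene or treatment is labelled in any group. Sorted cells were labelled microglia, which live within the brain tissue, or BAM, border-associated macrophages of its coverings and spaces, at E10.5, E11.5, E12.5, E14.5, E16.5 and E18.5, that is days after conception. In this order of stages there were 4, 3, 3, 3, 3 and 4 BAM libraries (20 in all) and 4, 3, 3, 2, 3 and 4 microglia libraries (19 in all).

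Macrophages at the borders of the brain and in other organs carry a set of uptake receptors through which they take in material from fluid and blood. Lyve1 binds the matrix sugar hyaluronan, Mrc1 is the mannose receptor CD206, and Cd163 takes up complexes of haemoglobin and haptoglobin. Folr2 is the beta form of the folate receptor, Timd4 binds phosphatidylserine on dying cells, and Cbr2 is an enzyme, a carbonyl reductase, and not a receptor. In adult brain, Lyve1 and CD206 are widely used to tell border macrophages from microglia.

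Libraries held 10692763 to 47182711 counts (median 22395273). Their numbers fell into 2 series: series R10 (16 libraries) held those of E10.5 and E11.5 with replicate 1 of E18.5 in each population, and series R8 held the other 23. The step from E11.5 to E12.5 therefore crosses the series with no shared stage and was not tested. All 11 microglia markers tested were lower in BAM as the mean over stages, so the labels match those markers. Tmem119, a microglial membrane protein, lay between 19.9 and 79.4 CPM (the count of a gene scaled to a library total of 1e6) in BAM and between 185 and 1131 CPM in microglia. The labels do not give the surface markers of the sort. CD206, the product of Mrc1, is a common gate for BAM, and where it was part of the gate the difference in Mrc1 would be that of the gate. The labels do not say whether replicates came from separate litters, so the p-values measure only the spread between these samples. In bulk samples, fewer cells of a type and less RNA per cell cannot be told apart.

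For orientation, DNA before the annotated transcription start is shown for 5 of the 6 genes, which matched the promoter table of RefSeq (GRCm38.p6). Lyve1 did not match it. The genes share their side of the comparison between the populations but differ in their course over the stages, so their upstream bases are set side by side. Each window runs 5′ to 3′ on the strand of the gene from up to 250 bases before the start, and bases inside annotated exons were left out. Capitals mark matches on either strand to 4 short motifs: the ETS core GGAAGT with its reverse complement ACTTCC, the MAF half-site TGCTGA with its reverse complement TCAGCA, the TATA box TATAAA with its reverse complement TTTATA, and the M-box CATGTG with its reverse complement CACATG, which is 1 form of the wider E-box. Folr2 has a pair of annotated starts.
Mrc1 chr2:14229164-14229391 (plus strand): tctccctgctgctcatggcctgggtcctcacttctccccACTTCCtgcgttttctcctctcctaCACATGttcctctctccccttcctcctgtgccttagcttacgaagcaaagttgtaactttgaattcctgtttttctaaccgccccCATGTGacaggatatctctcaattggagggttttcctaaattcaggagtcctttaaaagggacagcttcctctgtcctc
Cd163 chr6:124304429-124304650 (plus strand): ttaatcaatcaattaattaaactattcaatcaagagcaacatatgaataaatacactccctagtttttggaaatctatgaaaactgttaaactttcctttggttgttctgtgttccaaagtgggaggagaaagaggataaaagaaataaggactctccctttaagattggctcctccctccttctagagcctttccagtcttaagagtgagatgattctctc
Folr2 chr7:101857195-101857440 (minus strand): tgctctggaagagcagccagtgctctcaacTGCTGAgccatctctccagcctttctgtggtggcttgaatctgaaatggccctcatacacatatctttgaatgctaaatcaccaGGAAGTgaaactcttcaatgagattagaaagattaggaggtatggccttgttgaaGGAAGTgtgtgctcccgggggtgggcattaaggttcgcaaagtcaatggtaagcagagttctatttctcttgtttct
Folr2 chr7:101845332-101845581 (minus strand): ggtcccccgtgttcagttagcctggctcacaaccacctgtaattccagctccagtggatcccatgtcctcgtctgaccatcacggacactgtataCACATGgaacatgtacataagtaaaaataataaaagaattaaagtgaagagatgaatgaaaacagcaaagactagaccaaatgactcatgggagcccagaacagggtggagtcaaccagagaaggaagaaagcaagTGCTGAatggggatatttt
Timd4 chr11:46810549-46810798 (plus strand): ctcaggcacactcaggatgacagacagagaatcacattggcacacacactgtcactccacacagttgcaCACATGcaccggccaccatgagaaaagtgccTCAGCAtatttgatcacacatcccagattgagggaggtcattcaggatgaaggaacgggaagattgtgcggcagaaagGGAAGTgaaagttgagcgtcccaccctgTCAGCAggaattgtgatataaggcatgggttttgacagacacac
Cbr2 chr11:120732115-120732271 (minus strand): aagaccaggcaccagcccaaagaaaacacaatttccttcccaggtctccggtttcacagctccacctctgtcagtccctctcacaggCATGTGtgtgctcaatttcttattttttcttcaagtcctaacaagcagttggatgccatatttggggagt
The Mrc1 window held 1 ETS core and 2 M-boxes, the Timd4 window 1 ETS core, 2 MAF half-sites and 1 M-box, and the Cbr2 window 1 M-box. The outer Folr2 window held 2 ETS cores and 1 MAF half-site and the inner one 1 MAF half-site and 1 M-box. The Cd163 window held none of these letters. Among 32851 windows of 250 bases, 19.7% held the ETS core, 16.1% the MAF half-site, 12.4% the TATA box and 12.3% the M-box. A match describes letters and not a bound site. The windows of Mrc1 (228 bases), Cd163 (222), the outer start of Folr2 (246) and Cbr2 (157) are shorter than those of this background. Those of Mrc1, the outer Folr2 start and Cbr2 end at -23, -5 and -94 from the start, so the bases next to it are not shown.

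The first question was whether the 6 genes separate BAM from microglia at every stage. Higher levels in BAM were called at 35 of 36 combinations of gene and stage, with Cbr2 at E10.5 as the exception. Calls are at an adjusted p of 0.05 in edgeR's quasi-likelihood test over 22061 tested genes. Log2 fold changes are given ± SE, here the size of the change divided by the square root of the test's F statistic. This SE is derived from the test and is not a standard error of the fitted coefficient. At E10.5, 5 of the 6 genes were higher in BAM, where 2.32% of all tested genes were. All 6 were higher at E11.5 (2.84% of all genes), E12.5 (4.12%), E14.5 (3.93%), E16.5 (7.09%), E18.5 (6.7%) and as the mean over the stages (13.7%). The count at E11.5 was 3 or 4 when any 1 of its 6 libraries was left out. The libraries of the populations did not overlap at any stage for Lyve1, Mrc1, Folr2 and Timd4, and overlapped at E10.5 for Cd163 and Cbr2. The share of all genes whose libraries do not overlap was not counted. In groups this small such separation also arises by chance, so it only describes these genes.

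**Figure D1:**
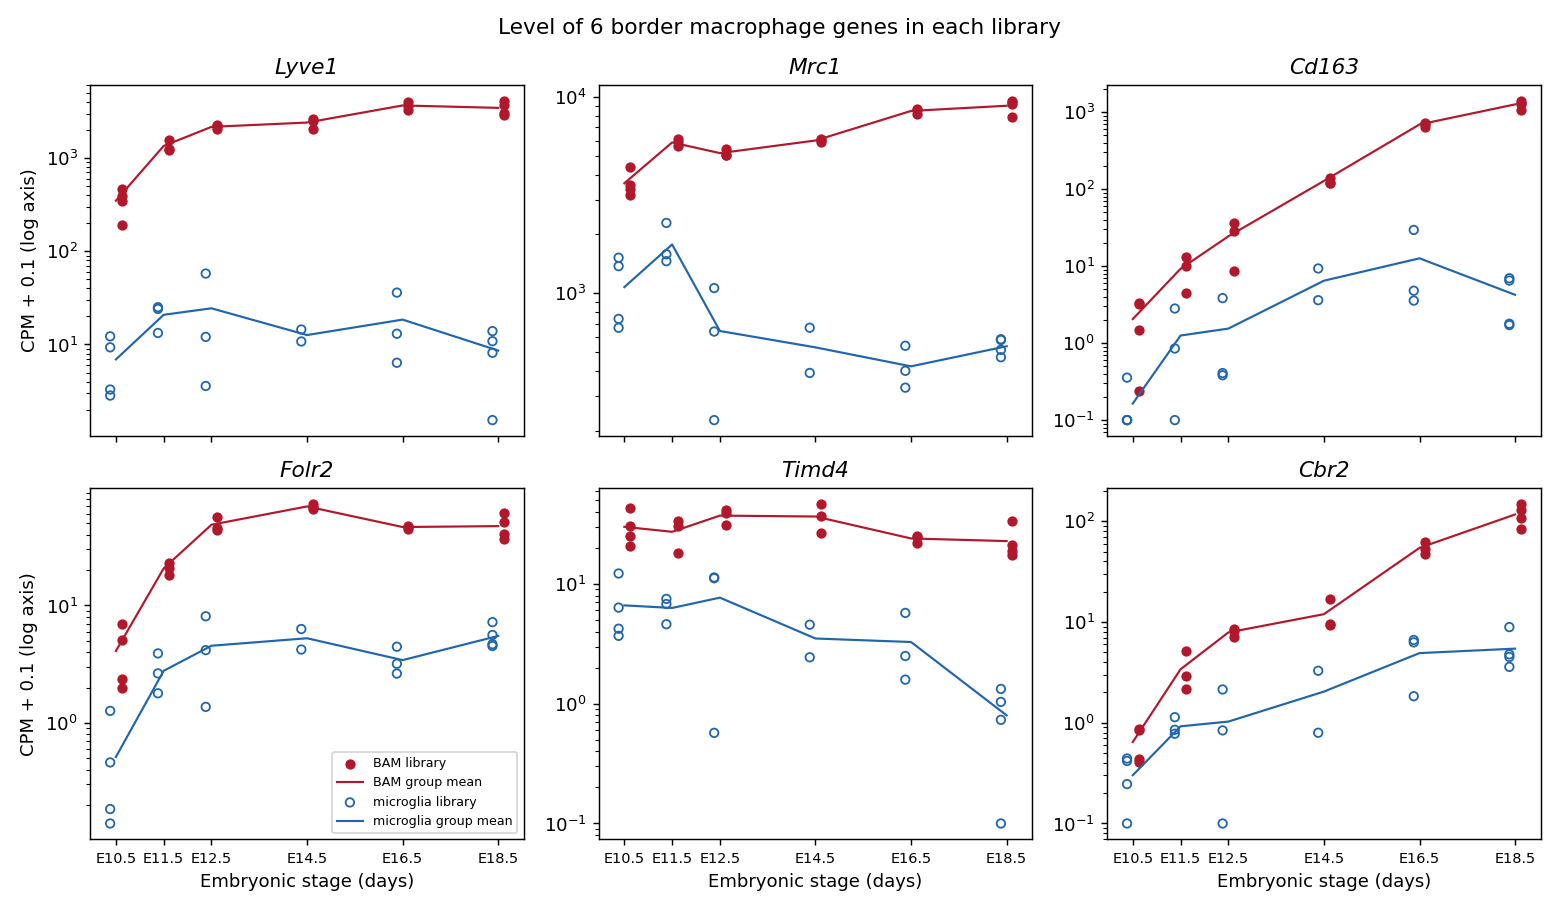
Level of each gene in each library, as CPM plus 0.1 on a log axis, against embryonic stage (filled points, BAM; open points, microglia; lines, group means, which join E11.5 and E12.5 across the series of library numbers). Points of the populations are set slightly apart along the axis, and they overlap in level only for Cd163 and Cbr2 at E10.5.

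Lyve1 (chromosome 7, 110850607 to 110863239, minus strand, GRCm38) had the largest fold of all genes called higher in BAM as the mean over the stages. At E10.5 the BAM libraries held 394, 189.9, 468 and 342 CPM and the microglia libraries 2.73, 3.19, 12.1 and 9.22 CPM. At E18.5 the BAM values were 4097, 3713, 2915 and 3069.6 CPM and the microglial values 1.44, 8.04, 13.8 and 10.7 CPM. The lowest BAM library was thus 15.7 times the highest microglial one at E10.5 and 211 times at E18.5. The log2 fold change was 5.65 ± 0.64 at E10.5 (adjusted p = 2.24e-07) and 8.59 ± 0.72 at E18.5 (adjusted p = 2.06e-11), with 6.02, 6.50, 7.65 and 7.66 at the stages between. Expressed as a share of the BAM mean, the microglial mean went from 1.96% at E10.5 to 0.247% at E18.5. Lyve1 kept its call at each stage when any single library was left out.

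Within BAM, Lyve1 held 1215, 1579 and 1248 CPM at E11.5, above every E10.5 library (348 ± 118 CPM, SD, n = 4), and rose over this step by 1.98 ± 0.56 (adjusted p = 0.0328). This call was lost when any 1 of 6 of the 7 libraries was left out (all but BAM E10.5 replicate 3), with values of 1.77 to 2.06 and adjusted p up to 0.104. From E10.5 to E18.5 Lyve1 rose by 3.29 ± 0.56 in BAM (adjusted p = 1.41e-05), and by 3.49 (adjusted p = 0.000509) within series R10, that is with the R8 libraries of E18.5 left out of the fit, which leaves 1 E18.5 library per population assumed to vary like the other groups. The later stages held 2032, 2265 and 2177 CPM at E12.5, 2624, 2524 and 2050.4 CPM at E14.5, and 3303, 3650.4 and 4030.2 CPM at E16.5. The libraries of E12.5 and E14.5 overlapped, as did those of E16.5 and E18.5, and no step after E12.5 was called for Lyve1 (0.14, 0.70 and -0.10). In microglia the change of 0.35 ± 0.57 from E10.5 to E18.5 was not called, and its sign turned within series R10 (-2.19) and with the series as a covariate (-0.19). The group means of microglia lay between 6.81 and 24.3 CPM with no order by stage, and single libraries reached 57.5 CPM at E12.5.

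Mrc1 (chromosome 2, 14229392 to 14332057, plus strand), the mannose receptor, was the gene of the set with the highest level in microglia. Microglia held 741, 668, 1519 and 1375 CPM at E10.5 against 4412, 3178, 3396 and 3559.6 CPM in BAM. At E18.5 microglia held 584, 515, 472 and 578 CPM against 9381, 9248, 7929 and 9557 CPM in BAM. The lowest BAM library was 2.09 times the highest microglial one at E10.5 and 13.6 times at E18.5, and the microglial mean went from 29.6% to 5.95% of the BAM mean. The BAM libraries held 5599, 5901 and 6109 CPM at E11.5, 5044, 5453 and 5040.1 CPM at E12.5, 6097, 5882 and 6038 CPM at E14.5, and 8207.4, 8633 and 8647 CPM at E16.5. Every BAM library of E16.5 stood above every one of the stages before it, although no step was called in BAM (0.71 ± 0.28 from E10.5 to E11.5 and 0.59 ± 0.31 from E14.5 to E16.5). The log2 fold change of BAM over microglia was 1.74 ± 0.27 at E10.5, 1.71 ± 0.31 at E11.5, 3.04 ± 0.33 at E12.5, 3.57 ± 0.40 at E14.5, 4.36 ± 0.35 at E16.5 and 3.97 ± 0.30 at E18.5 (adjusted p from 3.8e-05 at E10.5 to 1.29e-12 at E18.5). It was called at each stage without any single library. From E10.5 to E18.5 Mrc1 rose by 1.28 ± 0.27 in BAM (adjusted p = 0.000233; within series R10 1.30, adjusted p = 0.0304) and fell by 0.95 in microglia (SE 0.27, adjusted p = 0.00524). The microglial call was lost within series R10 (-0.83, adjusted p = 0.29) and with the series as a covariate (-0.82, adjusted p = 0.0983). All microglia libraries of E10.5 and E11.5, between 668 and 2284 CPM, stood above those of E16.5 and E18.5, between 331 and 584 CPM. Those of E12.5 held 639, 226 and 1064 CPM and those of E14.5 393 and 668 CPM.

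Cd163 (chromosome 6, 124304656 to 124330527, plus strand), the haemoglobin scavenger receptor, had the widest range over the stages. In BAM it held 3.19, 0.141, 3.11 and 1.36 CPM at E10.5 and 4.36, 13.1 and 9.98 CPM at E11.5. It then held 36.2, 8.47 and 28.1 CPM at E12.5 and 141, 121 and 121 CPM at E14.5. At E16.5 the values were 709, 729 and 636 CPM and at E18.5 1399, 1304, 1072 and 1267 CPM. From E12.5 on, no BAM library of a stage overlapped with one of the next stage. The rise from E10.5 to E18.5 was 9.30 ± 0.87 (adjusted p = 1.58e-10; within series R10 9.41) and that from E12.5 to E18.5 was 5.78 ± 0.83 (adjusted p = 6.96e-06; series R8 alone 5.71). No single step was called, with 2.26 ± 0.74 from E10.5 to E11.5 (adjusted p = 0.0743) and 2.52 ± 0.72 from E14.5 to E16.5 (adjusted p = 0.0973).

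In microglia Cd163 held 0.256 CPM (6 counts) in 1 library of E10.5 and no count in the other 3. It held 0, 2.71 and 0.751 CPM at E11.5, 0.308, 0.283 and 3.74 CPM at E12.5, 3.51 and 9.22 CPM at E14.5, and 1.61, 1.68, 6.40 and 6.86 CPM at E18.5. Its level reached 29.4 CPM in 1 library of E16.5, where the others held 4.70 and 3.47 CPM. The microglial change from E10.5 to E18.5 was a rise of 6.10 ± 1.27 (adjusted p = 0.000239), which was lost within series R10 (4.73, adjusted p = 0.0985). Microglia of E10.5 and E18.5 did not overlap for Cd163. The BAM excess was 4.93 ± 1.37 at E10.5 (adjusted p = 0.0277), 2.81 ± 0.83 at E11.5, 3.97 ± 0.87 at E12.5, 4.41 ± 0.97 at E14.5, 5.79 ± 0.85 at E16.5 and 8.14 ± 0.83 at E18.5 (adjusted p = 1.56e-09). The call at E10.5 was lost without BAM replicate 1 or 3 or microglia replicate 2, 3 or 4 (4.53 to 4.65, adjusted p 0.0735 to 0.0908), and without microglia replicate 1 that group is at 0 and no fold is given. A fit of the E10.5 groups alone did not keep Cd163 for testing. At E11.5 it was lost without BAM replicate 2 or 3 or microglia replicate 1 or 3 (2.30 to 2.76, adjusted p 0.0676 to 0.129), with DESeq2 (2.96, adjusted p = 0.0552) and in a fit of the compared groups only (2.93, adjusted p = 0.212), and was 4.61 without microglia replicate 2. The call was lost at E14.5 without microglia replicate 1 (3.82, adjusted p = 0.112), which leaves 1 microglia library. The value without microglia E12.5 replicate 3 was 6.34 at that stage.

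Folr2 (chromosome 7, 101839988 to 101857194, minus strand), the folate receptor of macrophages, reached its level early in BAM. The libraries held 1.90, 2.29, 4.94 and 6.86 CPM at E10.5, 20.7, 23.1 and 17.9 CPM at E11.5, and 56.6, 43.7 and 45.2 CPM at E12.5. At E14.5 they held 69.4, 72.5 and 66.6 CPM, above all BAM libraries of the other stages. They held 45.0, 47.5 and 46.6 CPM at E16.5 and 36.5, 60.8, 51.2 and 40.3 CPM at E18.5, and no step after E12.5 was called (0.51, -0.49 and 0.01). Folr2 rose from E10.5 to E11.5 by 2.40 ± 0.46 in BAM (adjusted p = 0.00101) and by 2.67 ± 0.54 in microglia (adjusted p = 0.00107). The microglial step was not called in a fit of the compared groups alone (2.70, adjusted p = 0.148). The rise from E10.5 to E18.5 was 3.55 ± 0.46 in BAM (adjusted p = 1.23e-07; within series R10 3.14) and 3.71 ± 0.53 in microglia (adjusted p = 7.09e-07; within series R10 3.41). Microglia held 0.0854, 0.362, 1.17 and 0.0397 CPM at E10.5 and 4.42, 4.58, 5.51 and 7.11 CPM at E18.5, with 1.27 to 7.99 CPM at the stages between, so all of E18.5 stood above all of E10.5. The microglial mean stayed between 7.18% and 13.02% of the BAM mean at all 6 stages, and the BAM excess between 2.92 (E11.5) and 3.83 (E16.5), with 3.18 ± 0.52 at E10.5 (adjusted p = 7.8e-05) and 3.03 ± 0.45 at E18.5 (adjusted p = 3.23e-06). These calls held without any single library, although the value reached 4.51 at E10.5 and 4.23 at E12.5 without microglia replicate 3 of the stage. They were lost at E10.5 in a fit of only the compared groups (3.24, adjusted p = 0.0977) and at E18.5 with only the 1 library per population of series R10 (2.91, adjusted p = 0.101). Folr2 shares 975 exon bases with Gm10602 on the other strand, and since a strand setting is not given in the sources used here, reads of the pair may not be told apart.

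Timd4 (chromosome 11, 46810800 to 46844332, plus strand), the phosphatidylserine receptor, was the gene of the set with no called change over time in BAM. BAM libraries held 30.6, 20.7, 43.2 and 24.9 CPM at E10.5 and 33.6, 21.1, 18.6 and 17.4 CPM at E18.5. At E12.5 and E14.5, its highest means, they held 38.7, 31.1 and 41.4 CPM and 46.1, 36.5 and 26.6 CPM. They held 30.3, 33.1 and 17.9 CPM at E11.5 and 24.6, 21.7 and 25.3 CPM at E16.5. The libraries of E10.5, E11.5 and E18.5 overlapped, whereas every library of E12.5 and E14.5 stood above every one of E16.5; the step from E14.5 to E16.5 was not called. The change from E10.5 to E18.5 was -0.41 ± 0.51 (adjusted p = 0.559) and was 0.11 within series R10. In microglia the values were 3.59, 4.13, 6.24 and 12.1 CPM at E10.5 and 0.935, 0, 0.633 and 1.23 CPM at E18.5, where the groups did not overlap. Microglia of E12.5 held 11.2, 0.471 and 11.05 CPM and those of E14.5 2.34 and 4.46 CPM. Microglial Timd4 fell by 3.04 from E10.5 to E18.5 (SE 0.61, adjusted p = 0.000145; within series R10 -2.75, adjusted p = 0.0703) and by 3.13 from E12.5 to E18.5 (SE 0.63, adjusted p = 0.00114; series R8 alone -3.33, adjusted p = 0.0094). The second of these was lost in a fit of the compared groups only (-3.21, adjusted p = 0.0627). With only the 1 E18.5 library of series R10 it was -2.74, a contrast that crosses the series and cannot separate stage from series. The BAM excess was 2.17 ± 0.53 at E10.5 (adjusted p = 0.00972), 2.10 ± 0.61 at E11.5, 2.32 ± 0.62 at E12.5, 3.50 ± 0.77 at E14.5, 2.94 ± 0.64 at E16.5 and 4.80 ± 0.63 at E18.5 (adjusted p = 3.43e-07). The E10.5 call was lost without microglia replicate 1 (1.97, adjusted p = 0.0501). At E11.5 it was lost when any library except BAM replicate 3 was left out (1.89 to 2.27, adjusted p 0.0605 to 0.127), and at E14.5 without microglia replicate 1 (3.06, adjusted p = 0.112). A fit of the compared groups alone ended it at E12.5 (2.33, adjusted p = 0.112).

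Cbr2 (chromosome 11, 120729489 to 120732114, minus strand), the carbonyl reductase, began near the limit of counting. At E10.5 BAM held 0.747, 0.775, 0.311 and 0.341 CPM (8 to 22 counts) and microglia 0.341, 0, 0.146 and 0.318 CPM, so the groups overlapped and the difference of 1.46 ± 0.73 was not called (adjusted p = 0.302). At E18.5 BAM held 83.5, 147, 129 and 107 CPM and microglia 3.48, 4.68, 8.80 and 4.40 CPM, a difference of 4.35 ± 0.54 (adjusted p = 1.2e-07). BAM held 2.81, 2.05 and 5.03 CPM at E11.5 and 8.43, 6.94 and 7.97 CPM at E12.5, against 1.04, 0.678 and 0.751 CPM and 0.740, 0 and 2.04 CPM in microglia, and the groups no longer overlapped. The stages between gave 1.98 ± 0.62 (E11.5), 3.05 ± 0.64 (E12.5), 2.66 ± 0.71 (E14.5) and 3.53 ± 0.61 (E16.5). The E11.5 call (adjusted p = 0.0481) was lost when any library except BAM replicate 2 was left out (1.55 to 2.18, adjusted p 0.0674 to 0.217), and with the compared groups alone (1.98, adjusted p = 0.139). The E12.5 call was lost in a fit of the compared groups only (3.08, adjusted p = 0.116). The E14.5 call was lost without BAM replicate 1 (2.25, adjusted p = 0.0696) or microglia replicate 2 (1.93, adjusted p = 0.334), and was 4.11 without microglia replicate 1.

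Within BAM, Cbr2 rose from E10.5 to E11.5 by 2.58 ± 0.60 (adjusted p = 0.00757), a call lost without BAM E11.5 replicate 3 (2.15, adjusted p = 0.0612) and with the compared groups alone (2.63, adjusted p = 0.084). From 17.0, 9.48 and 9.14 CPM at E14.5 it rose to 47.7, 53.2 and 62.2 CPM at E16.5, by 2.28 ± 0.57 (adjusted p = 0.0397). Leaving out any 1 of these 6 libraries ended this call (2.11 to 2.62, adjusted p 0.0677 to 0.221), as did RLE factors (2.23, adjusted p = 0.0513). From E10.5 to E18.5 Cbr2 rose by 7.68 ± 0.65 in BAM (adjusted p = 1.89e-11; within series R10 7.16) and by 4.79 ± 0.66 in microglia (adjusted p = 4.4e-07; within series R10 4.17). From E12.5 to E18.5 it rose by 3.96 ± 0.60 in BAM and by 2.67 ± 0.62 in microglia (adjusted p = 1.48e-05 and 0.00502; series R8 alone 4.07 and 2.76). The microglial rise from E12.5 was 4.06 without microglia E12.5 replicate 3, and was not called with the compared groups alone (2.67, adjusted p = 0.0976). With only the 1 E18.5 library of series R10 it was 2.15, a contrast that crosses the series and cannot separate stage from series.

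**Figure D2:**
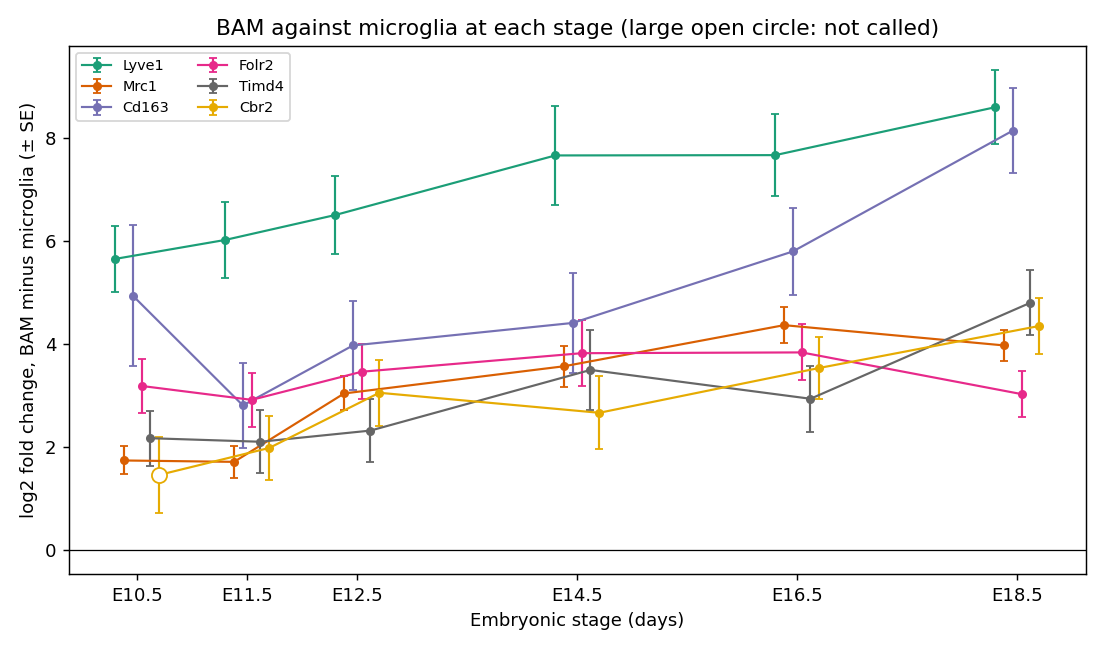
Log2 fold change of BAM over microglia with its SE (derived from the F statistic of the test) at each stage, from the edgeR fit over 39 libraries (1 line per gene, points set slightly apart along the axis). Lyve1 runs from 5.65 to 8.59, Cd163 reaches 8.14 at E18.5, Folr2 stays between 2.92 and 3.83, and the large open circle marks Cbr2 at E10.5, which was not called.

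The number of members that changed differed between the steps. From E10.5 to E11.5, 3 of the 6 genes rose in BAM (Lyve1, Folr2 and Cbr2), where 2.98% of all tested genes rose, and without BAM E11.5 replicate 3 it was 1 (Folr2). In microglia 1 of 6 (Folr2) rose over this step, where 5.24% of all genes did, and without microglia E10.5 replicate 3 it was 3, with Lyve1 (2.06, adjusted p = 0.0436) and Mrc1 (0.96, adjusted p = 0.0427). Without microglia E11.5 replicate 1 it was 2, with Cd163 (4.89, adjusted p = 0.0267). From E14.5 to E16.5, 1 of 6 rose in BAM (Cbr2), where 0.743% of all genes did, and a fit of the compared groups alone called 4, with Lyve1 (0.69), Mrc1 (0.58) and Cd163 (2.51). That fit called 557 genes over all in either direction, against 220 in the reported fit. No member was called in BAM from E12.5 to E14.5 or from E16.5 to E18.5 (0.784% and 0.068% of all genes were), nor in microglia from E12.5 to E14.5, E14.5 to E16.5 or E16.5 to E18.5 (0.0181%, 0.802% and 0.517%). In these 5 edgeR tests an unadjusted p under 0.05 was met by 1, 1, 1, 1 and 2 members in the order given: Cd163 (2.41), Cbr2 (1.08), Cd163 (1.97), Cbr2 (1.41), and both Cd163 (-1.49) and Timd4 (-1.95). The share of all genes under that unadjusted threshold was not counted, so these members cannot be set against it. At an adjusted p of 0.05, DESeq2 called 0 members in the first 4 of these tests and 1 in the last. Over all genes DESeq2 called 456, 49, 53, 546 and 490 in the same order, against 173, 15, 4, 177 and 114 in edgeR.

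Over the whole course more was called. From E10.5 to E18.5, 5 of 6 genes rose in BAM, where 22.8% of all tested genes rose and their median was 0.29. In microglia 3 of 6 rose (Cd163, Folr2 and Cbr2; 20.9% of all genes) and 2 of 6 fell (Mrc1 and Timd4; 14.4% of all genes), also with a median of 0.29 over all genes. Within series R10, which holds 1 E18.5 library per population, fewer of the 6 were called in microglia, and fewer genes over all. From E12.5 to E18.5, 2 rose in BAM (Cd163 and Cbr2; 5.24% of all genes), and in microglia 1 rose (Cbr2; 4.01%) and 1 fell (Timd4; 2.74%). Comparisons that end at E18.5 or start at E10.5 share those libraries. Summed markers of other cells also differed between these stages in BAM. The 10 mesenchymal and mural markers summed to 6.48 to 34.3 CPM at E10.5 and 206 to 723 CPM at E18.5 (10 of 10 higher), the 9 neural markers to 58.0 to 97.1 and 262 to 653 CPM (7 higher, 1 lower), and the 8 erythroid markers to 30.1 to 54.4 and 118 to 233 CPM (5 higher, 1 lower). In microglia the mesenchymal and mural markers summed to 4.44 to 22.9 CPM at E10.5 and 121 to 250 CPM at E18.5 (8 of 10 higher), the neural markers to 97.0 to 121 and 192 to 364 CPM (7 of 9 higher), and the erythroid markers to 31.3 to 99.1 and 177 to 276 CPM (5 of 8 higher, 1 lower). The part of these cells in the changes of the 6 genes was not tested.

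**Figure D3:**
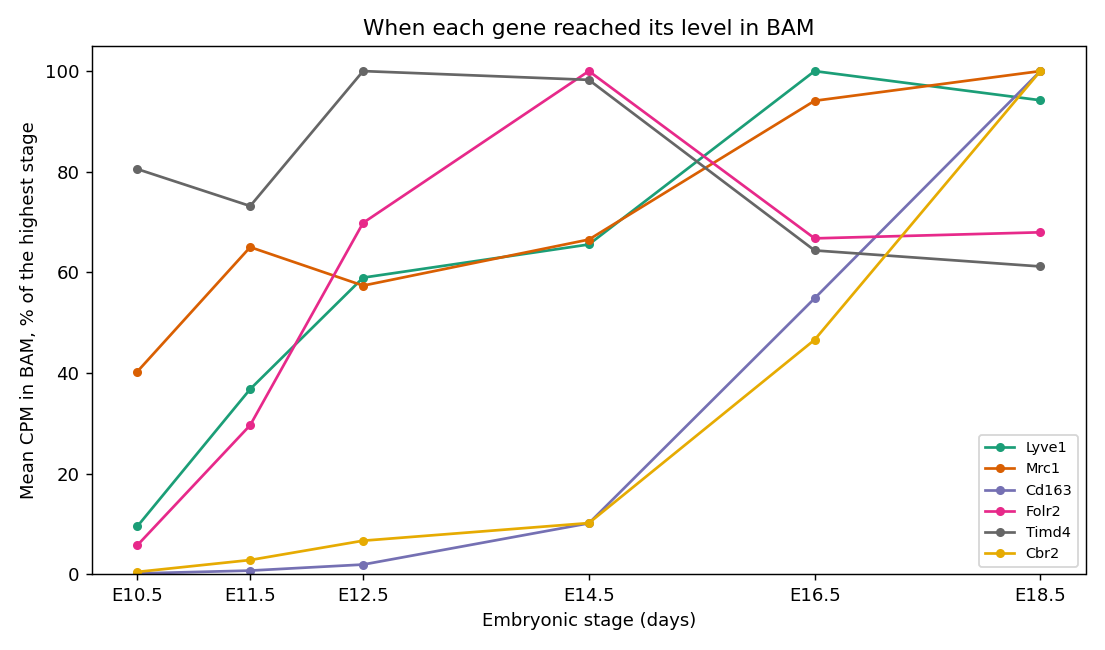
Mean CPM of each gene in BAM at each stage as a percentage of that gene's highest stage (linear axis from 0). Folr2 stands at 69.8% and Lyve1 at 58.9% of their highest mean by E12.5, while Cd163 stands at 1.92% and Cbr2 at 6.67% there, and Timd4 stays at or above 61.2% throughout.

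Whether the change over time differed between the populations was tested as an interaction. From E10.5 to E18.5, 3 of 6 genes changed more toward BAM: Lyve1 (2.94 ± 0.78, adjusted p = 0.0145), Mrc1 (2.23 ± 0.38, adjusted p = 9.17e-05) and Timd4 (2.63 ± 0.78, adjusted p = 0.0349), where 3.08% of all tested genes did. The BAM level of Lyve1 rose and its microglial change was not called, Mrc1 rose in BAM and fell in microglia, and Timd4 fell in microglia while its BAM change was not called. Cbr2 gave 2.89 ± 0.95 (adjusted p = 0.0633), which DESeq2 called (2.91, adjusted p = 0.00522), and Folr2 gave -0.16 ± 0.62 (adjusted p = 1). Cd163 gave 3.20 ± 2.92 (adjusted p = 0.662), and without microglia E10.5 replicate 1, the library that holds its only counts in that group, a fitted value of -0.32 against a group at 0. The Lyve1 call was lost without microglia E10.5 replicate 3 (2.51, adjusted p = 0.0548). The Timd4 call was lost without any 1 of 7 of the 16 libraries, namely BAM E10.5 replicates 1, 2 and 4, BAM E18.5 replicate 1, microglia E10.5 replicate 4 and microglia E18.5 replicates 2 and 3 (2.13 to 2.65, adjusted p 0.0502 to 0.11). Within series R10 the call remained for Lyve1 (5.68, adjusted p = 0.025) and not for Mrc1 (2.13, adjusted p = 0.108) or Timd4 (2.86, adjusted p = 0.364).

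From E12.5 to E18.5 the interaction was called for 1 of 6, Cd163 (4.17 ± 1.12, adjusted p = 0.038), where 0.961% of all genes were called in this direction. The call was lost without any 1 of 9 of the 14 libraries, namely BAM E12.5 replicates 2 and 3, all 4 BAM libraries of E18.5, microglia E12.5 replicate 3 and microglia E18.5 replicates 1 and 2. The value without microglia E12.5 replicate 3 was 1.84 (adjusted p = 0.87), and 3.76 to 4.30 without the others. It was also lost among series R8 libraries (3.85, adjusted p = 0.065) and with DESeq2 (4.13, adjusted p = 0.0616). Without microglia E12.5 replicate 2, which held the lowest value of that stage for all 6 genes, Mrc1 (1.33, adjusted p = 0.0268) and Timd4 (3.03, adjusted p = 0.0118) were called beside Cd163.

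Levels were compared between genes per length, as RPKM (CPM per kilobase of exon, from the gene lengths in the deposited table). In BAM the order at E10.5 was Mrc1 (571 ± 84.8 RPKM, SD), Lyve1 (119 ± 40.4), Timd4 (13.7 ± 4.50), Folr2 (2.59 ± 1.51), Cbr2 (0.410 ± 0.190) and Cd163 (0.357 ± 0.270). At E18.5 it was Mrc1 (1417 ± 117), Lyve1 (1182 ± 190), Cd163 (231 ± 25.2), Cbr2 (87.9 ± 20.8), Folr2 (30.5 ± 7.09) and Timd4 (10.4 ± 3.42). Timd4 thus went from the third place to the last and Cd163 from the last to the third. Neighbours whose libraries overlapped were Cbr2 and Cd163 at E10.5, E11.5 and E12.5, Folr2 and Timd4 at E11.5, Timd4 and Cbr2 at E14.5, and Mrc1 and Lyve1 at E16.5 and E18.5. By mean RPKM, Mrc1 and Lyve1 ranked 18 and 22 among all genes of E18.5 BAM and Cd163 ranked 140, against 41, 364 and 13810 at E10.5. The 6 genes together took 0.339 to 0.484% of all counts in BAM at E10.5 and 1.21 to 1.50% at E18.5.

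In microglia, Mrc1 was first at every stage, at 169 ± 68.1 RPKM at E10.5 and 84.4 ± 8.38 at E18.5, at least 10.6 times the next gene. At E18.5 the order after it was Cbr2 (4.02 ± 1.78 RPKM), Folr2 (3.50 ± 0.80), Lyve1 (2.92 ± 1.80), Cd163 (0.758 ± 0.527) and Timd4 (0.322 ± 0.242), each overlapping with the next. The microglial mean as a share of the BAM mean of E18.5 was 0.247% for Lyve1, 0.328% for Cd163, 3.08% for Timd4, 4.58% for Cbr2, 5.95% for Mrc1 and 11.45% for Folr2, so the 6 genes did not stand in 1 ratio.

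**Figure D4:**
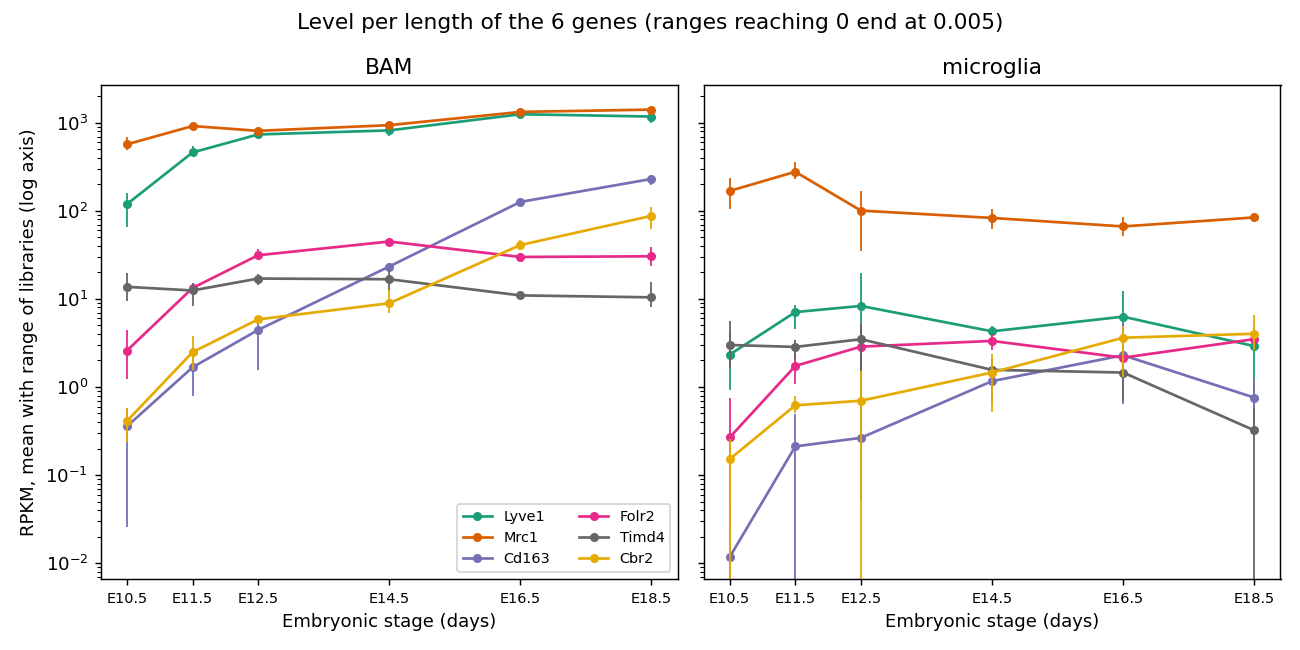
Mean RPKM of each gene per stage on a log axis in BAM (left) and microglia (right), with vertical lines from the lowest to the highest library. In BAM the lines of Cd163 and Cbr2 cross those of Folr2 and Timd4 between E12.5 and E16.5, and in microglia Mrc1 lies above the other genes at every stage.

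The genes also varied between libraries of a group. Deviations of log2 CPM from the group mean were positively correlated in all 15 pairs of genes over the 19 microglia libraries (Pearson r of 0.15 to 0.71) and in 10 of 15 pairs over the 20 BAM libraries (-0.46 to 0.73). Values of 1 library share its depth and preparation, so this is a description. Microglia E12.5 replicate 2 held the lowest value of its group for all 6 genes, with 3.49 CPM of Lyve1, 226 CPM of Mrc1 and 0.471 CPM of Timd4, and replicate 3 held the highest for 5, with 57.5, 1064 and 11.05 CPM. The 11 microglia markers summed to 15727, 13556 and 9695 CPM in replicates 1, 2 and 3 of that group, and the 30 other border macrophage genes to 21052, 18997 and 31649.9 CPM. The part of either in these differences was not tested. In BAM the highest correlations were between Lyve1 and Timd4 (0.73) and between Lyve1 and Cd163 (0.72), and the lowest was between Folr2 and Cbr2 (-0.46).

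Among 7720 tested genes whose mean log2 CPM was 4 or more, the genes most like each member by Pearson r of log2 CPM were named. Genes with clone, predicted or Rik names had been left out of these 7720. The likeness is a description, since libraries share stage and population. Over all 39 libraries Lyve1 was most like Igfbp4, Sh3bp5 and Pf4 (0.97 each) and Mrc1 most like Ap1b1 (0.98), Wwp1 and Clec4a1 (0.97 each). Cd163 was most like Fam13a (0.93), Sbf2 and Lyl1 (0.92 each), and Cbr2 like Pkp4, Lyl1 and Fam13a (0.92 each). Folr2 was most like the biliverdin reductase Blvrb (0.96), Prune2 (0.95) and the growth factor Igf1 (0.94), and Timd4 like Kank2, Tmem8 (0.91 each) and Mrvi1 (0.90). Over the 20 BAM libraries the nearest were Gas6, Tmem106a and Sh3bp5 for Lyve1 (0.98 each), Fcrls, Osbpl9 and Eef2k for Mrc1 (0.97 each), and Rab11fip5 (0.98), Bcl2l1 and Pmp22 (0.97 each) for Cd163. They were Sqor (0.98), Ms4a7 and Blvrb (0.97 each) for Folr2 and Fcgr2b, Uba7 and Pomk (0.97 each) for Cbr2. For Timd4 in BAM the values were lower, with Thap12 (0.76), Med9 (0.69) and Hnrnpdl (0.67).

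Other genes of the same systems were counted for the mean over stages, where 13.7% of all tested genes (3030 genes) were higher in BAM and 3199 genes were lower. List medians cover members with counts in every group, beside -0.02 over 16690 such genes. Of 30 other border macrophage genes, a list chosen with earlier results of these data known and so no independent evidence of its direction, 21 were higher, 3 lower and 6 not called (median 2.40 over 24). Of those higher, Colec12, a scavenger receptor (3.60 ± 0.11), Igfbp4, which binds growth factors (2.51 ± 0.09), Dab2, an adaptor of endocytosis (2.95 ± 0.13), and Stab1, which clears ligands from blood and matrix (1.86 ± 0.08), had the smallest p, and Cd5l (-1.42 ± 0.22), Clec12a (-1.04 ± 0.11) and Mrc2 (-1.23 ± 0.43) were lower. From E10.5 to E18.5 in BAM, 27 of the 30 rose, 1 fell and 2 were not called (median 2.47 over 27, beside 0.16 over 18852 genes with counts in both groups).

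Of 16 tested genes of hyaluronan handling, 4 were higher in BAM and 12 not called (median 0.23 over 12). They were Stab1, which also binds hyaluronan, the hyaluronidases Cemip2 (1.56 ± 0.07) and Hyal2 (0.40 ± 0.07), and the receptor Cd44 (0.93 ± 0.07). Of the other mannose receptor family genes, Mrc2 was lower, and Ly75 (-1.32 ± 0.77) and Pla2r1 (0.69 ± 0.70) were not called (median -0.27 over 2). Stab2, the relative of Stab1, was not called (-0.01 ± 0.60).

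Of 18 genes of haemoglobin and haem handling, 9 were higher, 7 lower and 2 not called (median 0.28 over 16). Blvrb (2.18 ± 0.13), the iron exporter Slc40a1 (1.84 ± 0.12) and the haem transporter Slc48a1 (0.95 ± 0.05) were higher, and the haemopexin receptor Lrp1 (-1.33 ± 0.07) was lower. Of 8 tested genes of the scavenger receptor cysteine-rich family, 2 were higher, the receptor Msr1 (2.79 ± 0.14) and Lgals3bp (0.31 ± 0.07), 2 were lower, Cd5 (-5.53 ± 0.62) and Cd5l, and 4 were not called (median -0.42 over 4). Cd163l1, the nearest relative of Cd163 by name, had 22 counts in all 39 libraries and was not tested.

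Of 24 tested genes of folate uptake and one-carbon metabolism, 6 were higher, 5 lower and 13 not called (median -0.08 over 24). The folate transporter Slc46a1 (-0.58 ± 0.08) and the mitochondrial enzyme Mthfd2 (-0.88 ± 0.12) were lower, and Folr1, the alpha receptor, was not called (-0.10 ± 0.64). Of 19 tested phosphatidylserine receptors and their partners, 3 were higher, 9 lower and 7 not called (median -0.35 over 17). Lower in BAM were Havcr2 (-3.72 ± 0.15), a relative of Timd4, the integrin chain Itgb5 (-1.88 ± 0.09) and the receptor Axl (-2.91 ± 0.16), and higher were Stab1, the bridging protein Gas6 (1.62 ± 0.08) and Dock1 (0.83 ± 0.09), which acts downstream of such receptors. Timd2 was not called, and Havcr1 had 0 counts in all 39 libraries.

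Of 14 tested carbonyl reductases, 7 were higher, 1 lower and 6 not called (median 0.30 over 13). They included Akr1b8 (3.57 ± 0.31), Dcxr (1.16 ± 0.11), Cbr1 (0.53 ± 0.14) and Cbr3 (1.07 ± 0.31), and Dhrs11 (-0.66 ± 0.12) was lower. Of 18 macrophage regulators, 6 were higher, 6 lower and 6 not called (median 0.10 over 18). The receptor Il10ra (-1.63 ± 0.06) and the factor Irf8 (-0.76 ± 0.05) were lower, and the factor Tfec (1.01 ± 0.07) was higher.

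Lyve1 is also made by lymphatic vessels and Timd4 by macrophages of the fetal liver, so markers of those cells were counted in the same fit. Of 13 tested endothelial markers, 1 was higher in BAM (Egfl7, 1.53 ± 0.14), 1 lower (Pecam1, -1.59 ± 0.13) and 11 not called, and the 14 markers summed to 80.2 to 405 CPM in BAM and 108 to 276 CPM in microglia. The lymphatic factor Prox1 was detected in every library, at a median of 22.5 CPM in BAM and 22.2 CPM in microglia (-0.04 ± 0.18, not called), and the lymphatic chemokine Ccl21a was at 0 in 17 of 20 BAM libraries. Of 5 tested fetal liver macrophage markers, Hmox1 was higher (0.91 ± 0.10), Cd5l was lower and 3 were not called, and the Kupffer cell lectin Clec4f was at 0 in all 20 BAM libraries. The 6 listed markers summed to 355 to 1143 CPM in BAM (median 811) and 244 to 653 CPM in microglia (median 389). At E10.5 these sums were 1015 to 1143 CPM in BAM and 366 to 616 CPM in microglia, and at E18.5 355 to 521 and 261 to 357 CPM. Vsig4, a complement receptor of such cells, lay between 0 and 24.7 CPM in BAM. Monocyte markers were lower in 2 of 7 (Ccr2, -3.82 ± 0.36, and Plac8, -3.04 ± 0.32), erythroid markers in 7 of 8, mesenchymal markers in 1 of 10 (Cspg4, -2.18 ± 0.52) and neural markers in 1 of 9 (Nes, -2.01 ± 0.12), with the others of these 4 lists not called.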

How the data were processed

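RNA of sorted cells was extracted with the PicoPure kit and made into SMART-seq2 and Nextera XT libraries with paired-end reads, per the labels' protocols. The authors aligned reads with STAR to GRCm38 and counted them with featureCounts, per the submitters' processing notes, with versions, annotation release and strand setting not given in the sources used here. The deposited table holds whole-number counts per gene and library and a gene length in bases. Values of 2 were more frequent than values of 1 (49977 against 21280 table entries), so a count may not stand for 1 fragment. Groups came from the labels.

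CPM and RPKM were computed from raw totals and the deposited lengths, with errors as SD over libraries. Genes kept by filterByExpr (22061) were fitted in edgeR 4.0.16 (R 4.3.3) with TMM factors and 1 coefficient for each of 12 groups (27 degrees of freedom left, with a common biological variation between libraries of 55.1%), and quasi-likelihood p-values were adjusted by Benjamini-Hochberg over these genes. The fit was tested on counts simulated from its own dispersion, which does not test whether these data follow that model. No shared replicate number is given, so no block was used. Alternatives were RLE factors, no filter, DESeq2 1.42.0, the compared groups alone, each library left out, adjacent library numbers as a block, the library series as a covariate, series R8 alone, the R8 libraries of E18.5 left out, and CPM scaled by TMM factors. The deposited counts had 0 unused columns.

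Named genes are the 6 members, the 3 genes most like each over all and over BAM libraries, up to 4 genes of each list by p and family members. The 6 genes and the lists were chosen with earlier results of these data known. Among genes named outside this rule are list members that were lower or that served as markers, chosen after their values were seen. Some list genes that this rule names are not reported here. Figures were drawn with matplotlib 3.10.9.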

Additional observations from a re-analysis of the deposited data

Results flagged for a closer look

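Among the 24 groups of 4 libraries formed by gene, population and stage, 1 held a library far from the rest: Cd163 in microglia at E10.5, where replicate 1 held 0.256 CPM and the other 3 held no count. For normally spread values, chance flags about 1 in 20 such groups. That rate does not apply here, since 1 library with counts beside 3 with none is flagged whatever its count. The change over time differed between the populations from E10.5 to E18.5 for Lyve1 (2.94), Mrc1 (2.23) and Timd4 (2.63), as log2 differences of the BAM change minus the microglial change in the edgeR test of the interaction. The Timd4 call was lost without any 1 of 7 of the 16 libraries and the Lyve1 call without 1 of them. From E12.5 to E18.5 the change differed for Cd163 (4.17). This call was lost without any 1 of 9 of the 14 libraries and with DESeq2 (4.13, adjusted p = 0.0616).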

How the results depend on the processing

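Of 64 changes of single genes called in the reported fit, DESeq2 kept 62, RLE factors 63, the series covariate 63 and no filter on low counts 64, with the same direction. Leaving out 1 library kept 610 calls and lost 54. The labels give no replicate number and do not say that neighbouring library numbers mark a shared litter or day. A fit with adjacent library numbers as a block, leaving out the 1 library with no neighbour of the other population, kept 41 of 41 calls between the populations. Counts of members called that moved by over 1.5 times were these, with the reported count in parentheses. With the compared groups alone: E10.5 between populations 3 (5), BAM E14.5 to E16.5 4 (1), BAM E16.5 to E18.5 1 (0), BAM E12.5 to E18.5 4 (2), microglia E10.5 to E11.5 0 (1) and microglia E12.5 to E18.5 0 (2). All genes called, in this order, numbered 524 (989), 557 (220), 32 (15), 2391 (2330), 1025 (1822) and 1538 (1488). With no filter: BAM E12.5 to E14.5 1 (0), BAM E14.5 to E16.5 2 (1), microglia E10.5 to E11.5 5 (1) and the interaction from E12.5 2 (1). Here the calls over all genes were 193 (173), 239 (220), 1839 (1822) and 474 (483). With DESeq2: microglia E10.5 to E11.5 4 (1) and E16.5 to E18.5 1 (0), and with RLE factors BAM E14.5 to E16.5 0 (1). Over all genes these called 2692 (1822), 490 (114) and 185 (220). With series R8 alone: BAM E14.5 to E16.5 2 (1) and the interaction from E12.5 0 (1), where calls over all genes were 576 (220) and 445 (483). Leaving out the R8 libraries of E18.5 leaves 1 E18.5 library per population, assumed to vary like the other groups, so counts are not given for it. Fewer members were called there in microglia from E12.5 to E18.5 and from E10.5 to E18.5, and in the interactions. Fewer genes were also called over all in each of these comparisons. In this setting each change from E12.5 to E18.5 crosses the series of library numbers with no shared library.

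Leaving out each library, the counts ranged from 3 to 4 at E11.5 between populations, 1 to 3 in BAM from E10.5 to E11.5, 0 to 0 in BAM from E14.5 to E16.5, 1 to 3 in microglia from E10.5 to E11.5 and 0 to 3 for the interaction from E12.5. The cause of these moves was not tested. Changes from E12.5 to E18.5 with the R8 libraries of E18.5 left out cross the series of library numbers, so stage and series cannot be separated there. The values that changed sign were not called. They were Folr2 in BAM from E12.5 to E18.5 (0.02; no filter -0.0097, R8 libraries of E18.5 left out -0.35, compared groups alone -0.0164, single libraries left out -0.14 to 0.10), Timd4 in BAM from E10.5 to E18.5 (-0.41; series covariate 0.0811, R8 libraries left out 0.11), Mrc1 in microglia from E12.5 to E18.5 (-0.08; R8 libraries left out 0.12, single libraries left out -0.48 to 0.42) and Lyve1 in microglia from E10.5 to E18.5 (0.35; series covariate -0.19, R8 libraries left out -2.19, single libraries left out -0.0323 to 0.75). With single libraries left out, Timd4 from E10.5 to E11.5 ranged from -0.29 to 0.12 in BAM and from -0.24 to 0.45 in microglia, and Lyve1 in microglia from E12.5 to E18.5 from -1.87 to 0.23. The interaction from E10.5 ranged from -0.32 to 3.63 for Cd163, whose microglia of E10.5 are then at 0, and from -1.47 to 0.23 for Folr2, and that from E12.5 from -1.17 to 0.0005 for Folr2 and from -0.15 to 1.88 for Cbr2.

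Of 72 group levels, 70 moved by less than 1 SD under TMM scaling and 2 by more (Mrc1 and Folr2 in BAM of E14.5). Depth limits Cd163 and Cbr2 at E10.5, where BAM libraries held 4 to 94 and 8 to 22 counts. The microglia of E14.5 are 2 libraries.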
